A study of Mus musculus with 8 samples.

Results

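The 9 genes described here encode the enzymes and the transfer protein that put the first sugar on ceramide, extend or sulfate the product, move it and take it apart. They were chosen by symbol from the 54141 Ensembl gene IDs of the expression table, and each symbol matched 1 ID. The genes are Ugcg, B4galt5, B4galt6, St3gal5 and Gba2 on the glucosylceramide side, Ugt8a, Gal3st1 and Galc on the galactosylceramide side, and Gltp, which carries both lipids. RNA-seq was made from epithelial cells of the distal colon in 4 libraries of Degs2 homozygous mutant mice (Degs2_KO) and 4 of wild-type mice (WT). Both groups are on the strain background c57bl6/j, and no treatment, age or sex is given. The cells were shaken off the tissue with EDTA and strained, so other cells of the mucosa can be present, and the allele's design is not described in the sources used here. Degs2 is the desaturase and hydroxylase that makes phytoceramide, and the comparison asks what its loss does to the epithelial transcriptome.

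Glycosphingolipids are ceramides with sugars attached. Ceramide glucosyltransferase (Ugcg) adds glucose, and the lactosylceramide synthases B4galt5 and B4galt6 add galactose to it. The GM3 synthase St3gal5 then adds sialic acid, the entry to most gangliosides. On the other branch ceramide galactosyltransferase (Ugt8a) adds galactose directly, and the sulfotransferase Gal3st1 sulfates the product to sulfatide, a lipid best known from myelin. Gba2, outside the lysosome, removes glucose from glucosylceramide, and Galc, in the lysosome, removes galactose from galactosylceramide. The glycosphingolipids of the intestinal epithelium are rich in phytosphingosine, the base whose formation Degs2 catalyses.

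Levels are given in CPM (a gene's count relative to the library's total, with TMM normalization), and Degs2_KO and WT libraries are named by group and replicate number. The libraries held between 32.8 and 49.8 M fragments. Degs2 was at 58.2 ± 9.08 CPM in Degs2_KO and 122 ± 20.1 CPM in WT (SD, n = 4 each), and the groups did not overlap; its log2 fold change of -1.07 ± 0.15 (SE) had an adjusted p of 0.796 by edgeR's quasi-likelihood test. The epithelial markers Epcam, Cdh1, Krt8, Krt19, Krt20, Vil1, Cdx2 and Vill summed to between 12900 and 14600 CPM in Degs2_KO and to between 12300 and 16000 CPM in WT, so markers of the labelled cell type were abundant in every library. Degs2_KO replicate 3 and WT replicate 1 stood apart from the other 6 libraries, at -59.1 and -53.9 on a first principal component that held 50.3% of the variance, where the others lay between -1.1 and 43. In these same libraries Hoxd13, a homeobox gene of the hindmost gut, was at 0.3 CPM (Degs2_KO replicate 3) and 0.695 CPM (WT replicate 1), against 38.8 to 85.3 CPM in the others. Values without them stand beside the results below that they bear on most.

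St3gal5 and Ugt8a are the members whose level differed most between libraries. The sequences before their RefSeq starts are shown for that reason, with that of Ugcg, which varied little. Each line is the 250 bases before the RefSeq transcription start on GRCm38.p6, written 5′ to 3′ on the strand of the gene, with capitals for GGGCGG or its reverse complement CCGCCC, the letters of the Sp1 site. The windows are chr6:72097358-72097607 on the plus strand for St3gal5, chr3:125938653-125938902 on the minus strand for Ugt8a and chr4:59189300-59189549 on the plus strand for Ugcg. The GENCODE gene starts differ from the RefSeq starts. The Ugcg window lies inside the GENCODE gene, which starts at 59189257, and the St3gal5 window ends just inside its gene, which starts at 72097592.
St3gal5: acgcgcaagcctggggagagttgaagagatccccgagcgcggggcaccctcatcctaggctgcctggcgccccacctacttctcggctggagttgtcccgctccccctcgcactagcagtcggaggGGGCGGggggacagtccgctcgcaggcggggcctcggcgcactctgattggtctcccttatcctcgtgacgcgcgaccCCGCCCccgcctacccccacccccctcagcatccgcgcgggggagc
Ugt8a: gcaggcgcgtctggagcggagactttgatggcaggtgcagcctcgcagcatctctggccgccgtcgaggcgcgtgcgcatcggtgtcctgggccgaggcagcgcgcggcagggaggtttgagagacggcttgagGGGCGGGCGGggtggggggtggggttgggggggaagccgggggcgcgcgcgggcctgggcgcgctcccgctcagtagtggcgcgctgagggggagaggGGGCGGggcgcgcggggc
Ugcg: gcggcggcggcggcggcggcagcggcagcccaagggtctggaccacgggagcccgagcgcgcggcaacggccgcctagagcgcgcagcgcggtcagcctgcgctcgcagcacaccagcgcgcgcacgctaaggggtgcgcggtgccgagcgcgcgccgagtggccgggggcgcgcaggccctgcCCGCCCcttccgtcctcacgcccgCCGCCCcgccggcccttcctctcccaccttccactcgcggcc
St3gal5 held 2 matches, Ugt8a 3, of which 2 overlap each other, and Ugcg 2. Among all 32851 RefSeq promoter windows of this length 32.7% held at least 1 match on either strand. The GATA factor letters AGATAA (9.99% of all windows) and TTTAT, the core letters bound by Cdx and posterior Hox factors (37.3% of all windows), were absent on both strands from the windows of these genes and of the other 5 matched members. The GC content was 71.6% for St3gal5, 76.8% for Ugt8a and 80.4% for Ugcg, where the median of all windows was 52.4%. These matches describe the letters only.

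The members spanned a wide range of levels. Per kb of principal transcript, the median over the 8 libraries was 58.6 CPM per kb for Gltp, 42.5 for Ugcg, 28.3 for B4galt5, 20.8 for Gal3st1, 11.8 for B4galt6, 4.3 for Gba2 and 2.56 for Galc. Below these lay Ugt8a at 0.0453 CPM per kb and St3gal5 at 0.0189. The ranges over the 8 libraries overlapped between the neighbours Ugcg and B4galt5, B4galt5 and Gal3st1, and Ugt8a and St3gal5, so the order within these pairs is within the spread. The ranges of the other neighbouring pairs did not overlap. In WT replicate 1 alone St3gal5 reached 4.11 CPM per kb, above Galc in the same library (3.31). The colon epithelium of both genotypes thus held transcripts for glucosylceramide synthesis, lactosylceramide synthesis, sulfation and glycolipid transfer in every library, and those for ceramide galactosyltransferase and GM3 synthase near the detection floor in most of them.

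**Figure D1:**
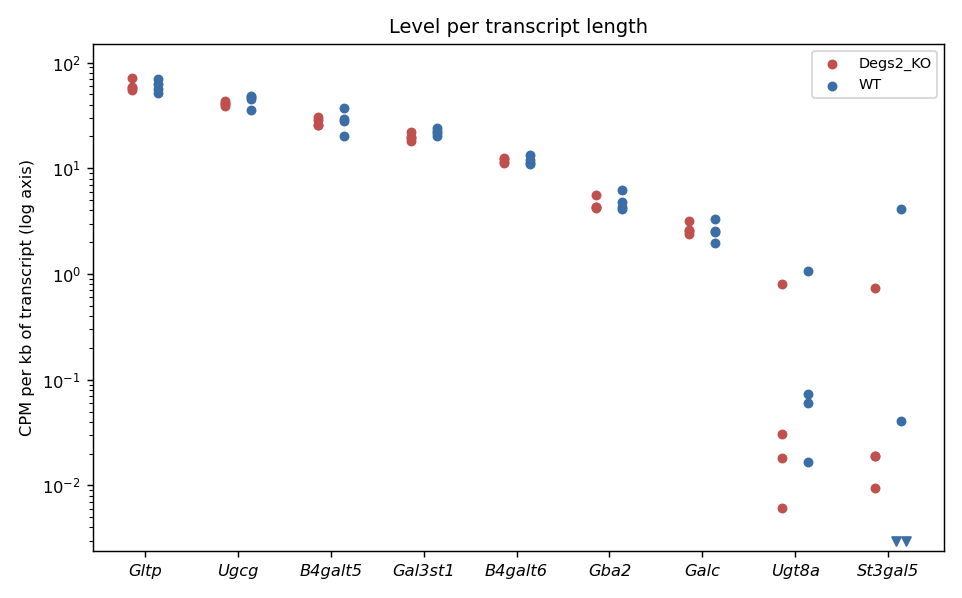
Level of each gene in CPM per kb of principal transcript (log axis), with a point for each of the 4 Degs2_KO (left) and 4 WT (right) libraries; triangles at the lower edge are the WT libraries in which St3gal5 was at 0. Each of the 7 genes from Gltp to Galc (medians 58.6 to 2.56) varies at most 1.83-fold between libraries, whereas Ugt8a and St3gal5 are each spread over more than a decade.

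St3gal5 (ENSMUSG00000056091, chromosome 6, 72097592 to 72154571, plus strand, GRCm38) exceeded 1 CPM in 1 library of each genotype and had at most 4 fragments in the others. Its level in Degs2_KO replicates 1 to 4 was 0.0458, 0.0229, 1.8 and 0.0462 CPM, from 2, 1, 78 and 2 fragments. In WT replicates 1 to 4 it was 10.0, 0, 0 and 0.1 CPM, from 317, 0, 0 and 4 fragments. Degs2_KO replicate 3 and WT replicate 1 were thus the high libraries, and the genotypes overlapped. A count of 0 allows up to 3 fragments (1-sided 95% bound), which is 0.0622 CPM in WT replicate 2 and 0.0679 CPM in WT replicate 3. The exact 2-sided 95% Poisson intervals, which cover counting error only, end at 0.0765 and 0.0835 CPM in these libraries. They were 1.42 to 2.25 CPM in Degs2_KO replicate 3 and 8.94 to 11.2 CPM in WT replicate 1, so the 2 high libraries also differed from each other. St3gal5 did not pass the filter on low counts. In the fit without that filter its log2 fold change was -2.39 ± 1.76 (SE), with an unadjusted p of 0.201 and an adjusted p of 1.0 by edgeR's quasi-likelihood test. Without the libraries that stood apart it lay between 0.0229 and 0.0462 CPM in Degs2_KO and between 0 and 0.1 CPM in WT, near the floor in both.

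Ugt8a (ENSMUSG00000032854, chromosome 3, 125865271 to 125938619, minus strand), the only route to galactosylceramide, followed the same libraries. It was at 0.0687, 0.115, 3.03 and 0.0231 CPM in Degs2_KO replicates 1 to 4, from 3, 5, 131 and 1 fragments. In WT replicates 1 to 4 it was at 3.98, 0.0622, 0.226 and 0.276 CPM, from 126, 3, 10 and 11 fragments. The high library of each genotype was again Degs2_KO replicate 3 and WT replicate 1, and the genotypes overlapped. The Poisson intervals of these libraries, 2.53 to 3.59 CPM in Degs2_KO replicate 3 and 3.32 to 4.74 CPM in WT replicate 1, overlapped, unlike those of St3gal5. Ugt8a was also under the filter on low counts. Without that filter its log2 fold change was -0.48 ± 1.35 (SE), with an unadjusted p of 0.729 and an adjusted p of 1.0 by edgeR's quasi-likelihood test. Without the libraries that stood apart, 3 per genotype remained, with 0.0688 ± 0.0458 CPM in Degs2_KO and 0.188 ± 0.112 CPM in WT (SD, n = 3 each), and these overlapped.

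**Figure D2:**
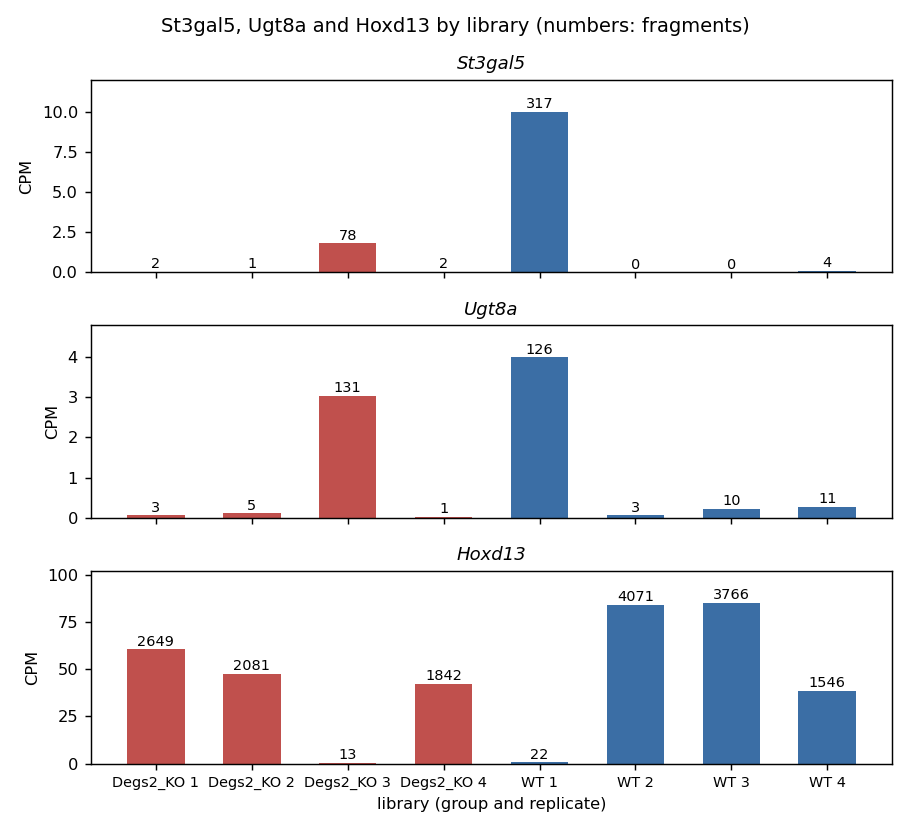
CPM of St3gal5, Ugt8a and Hoxd13 in each library, Degs2_KO replicates 1 to 4 on the left and WT replicates 1 to 4 on the right, with the number of fragments above each bar. The libraries with the tall St3gal5 and Ugt8a bars, Degs2_KO 3 and WT 1, are those with 13 and 22 Hoxd13 fragments, against 1546 or more in each of the other libraries.

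Marker lists were read beside St3gal5 and Ugt8a, first those that moved with them across the libraries. The distal position list (Hoxd13, Hoxd12, Hoxd11, Hoxa13, Hoxb13) summed to 140 CPM in Degs2_KO replicate 3 and 143 CPM in WT replicate 1, against 365 to 401 CPM in the other Degs2_KO libraries and 363 to 485 CPM in the other WT libraries. Hoxd12 and Hoxd11 were at 0 in both. The colonocyte list was highest in these libraries, at 10100 and 9470 CPM, through Car1, a carbonic anhydrase, which made up 6570 and 6180 CPM and was the only 1 of its 6 genes that was highest in both. Without Car1 the list was at 3560 CPM in Degs2_KO replicate 3 and 3290 CPM in WT replicate 1, inside the range of the other libraries (2580 to 4250 CPM). The chloride exchanger Slc26a3 was at 755 and 826 CPM and the water channel Aqp8 at 209 and 237 CPM, each inside the range of the other libraries. The enteroendocrine list was at 327 CPM in Degs2_KO replicate 3 and 232 CPM in WT replicate 1, against 81.8 to 118 CPM in the other Degs2_KO and 94.6 to 172 CPM in the other WT libraries, with 3 of its 5 genes (Chga, Chgb and Gcg) highest in both and Pyy not. The T cell list was at 10.8 CPM in Degs2_KO replicate 3 and 13.8 CPM in WT replicate 1, with 3.14 to 5.47 CPM in the other Degs2_KO and 1.36 to 8.05 CPM in the other WT libraries; 3 of its 5 genes were highest in both. Tuft cell markers summed to 58.4 and 56.3 CPM there and to between 27.4 and 40.8 CPM elsewhere, with 3 of 4 genes highest in both. The dissociation stress list was lowest there, at 895 and 835 CPM, against 1800 to 2920 CPM elsewhere, with 4 of 7 genes lowest in both. The smooth muscle list, under 1 CPM in every library, was also lowest there. It was at 0 CPM in Degs2_KO replicate 3 and 0.0948 CPM in WT replicate 1, against 0.249 to 0.727 CPM elsewhere. The goblet, crypt, fibroblast, myeloid and endothelial lists did not set Degs2_KO replicate 3 and WT replicate 1 apart together. The goblet list was at its lowest in Degs2_KO replicate 3 (5370 CPM, with Muc2 at 522 CPM) and at its highest in WT replicate 1 (28500 CPM, with Muc2 at 24600 CPM). The crypt, fibroblast, myeloid and endothelial lists were in both inside the range of the other libraries. The part of the differences between libraries in the levels of St3gal5 and Ugt8a was not tested. In bulk RNA fewer cells of a type and less RNA per cell cannot be told apart.

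Ugt8a is a marker of myelinating cells in nerve tissue, so glial markers were read too. Of the 8 listed, Mog was at 0 in all libraries, and Sox10, S100b, Gfap and Mag did not exceed 0.16 CPM in any library. The list summed to 97.7 CPM in both of these libraries and to between 74.9 and 84.1 CPM elsewhere. Nearly all of it was Mbp, at 96.5 and 96.7 CPM in these libraries.

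The genes most like Ugt8a over the 8 libraries, among 10920 named protein-coding genes with a mean log2 CPM of at least 1, were Slc10a2, Ces1e and Ces1g. Slc10a2, the bile acid uptake transporter best known from the ileum, was at 3.46, 3.46, 70.3 and 2.1 CPM in Degs2_KO replicates 1 to 4 and at 101, 3.32, 4.89 and 11.7 CPM in WT replicates 1 to 4. Ces1g, a carboxylesterase, was at 128 CPM in Degs2_KO replicate 3 and 155 CPM in WT replicate 1, and at 12.9 CPM or less elsewhere. Pearson's r of the log2 CPM with Ugt8a was 0.991 for Slc10a2, 0.989 for Ces1e and 0.987 for Ces1g, with Spearman's rho of 0.98, 0.95 and 0.98. All 3 genes were highest in Degs2_KO replicate 3 and WT replicate 1, and over the other 6 libraries r was 0.91, 0.92 and 0.87. In those 6 libraries Ugt8a had only 1 to 11 fragments, so the r over them rests on low counts. They were also among the 8 libraries used to pick the genes. The r over the 8 libraries are the highest of many and serve as a ranking, so no p is given.

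The other 7 members passed the filter, and their genotype difference was small. None of the 7 passed edgeR's quasi-likelihood test after Benjamini-Hochberg adjustment, where 0% of all 16132 tested genes (0 genes) did. At an unadjusted p under 0.05 there were 0 of the 7 and 183 of all tested genes (1.13%), and DESeq2 called 2 genes in all (0.0124%), Degs2 and Dlk1. The groups overlapped for every member, where 1.05% of the tested genes had groups that did not. Of the 7, 2 were higher and 5 lower in Degs2_KO, with a median log2 fold change of -0.05, beside -0.0069 for all tested genes. The 95% intervals of the 7 fold changes lay between 0.736 and 1.34, all inside a 1.5-fold change either way, as did the intervals of 60.4% of the tested genes. The adjusted p was 1.0 for each of the 7.

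**Figure D3:**
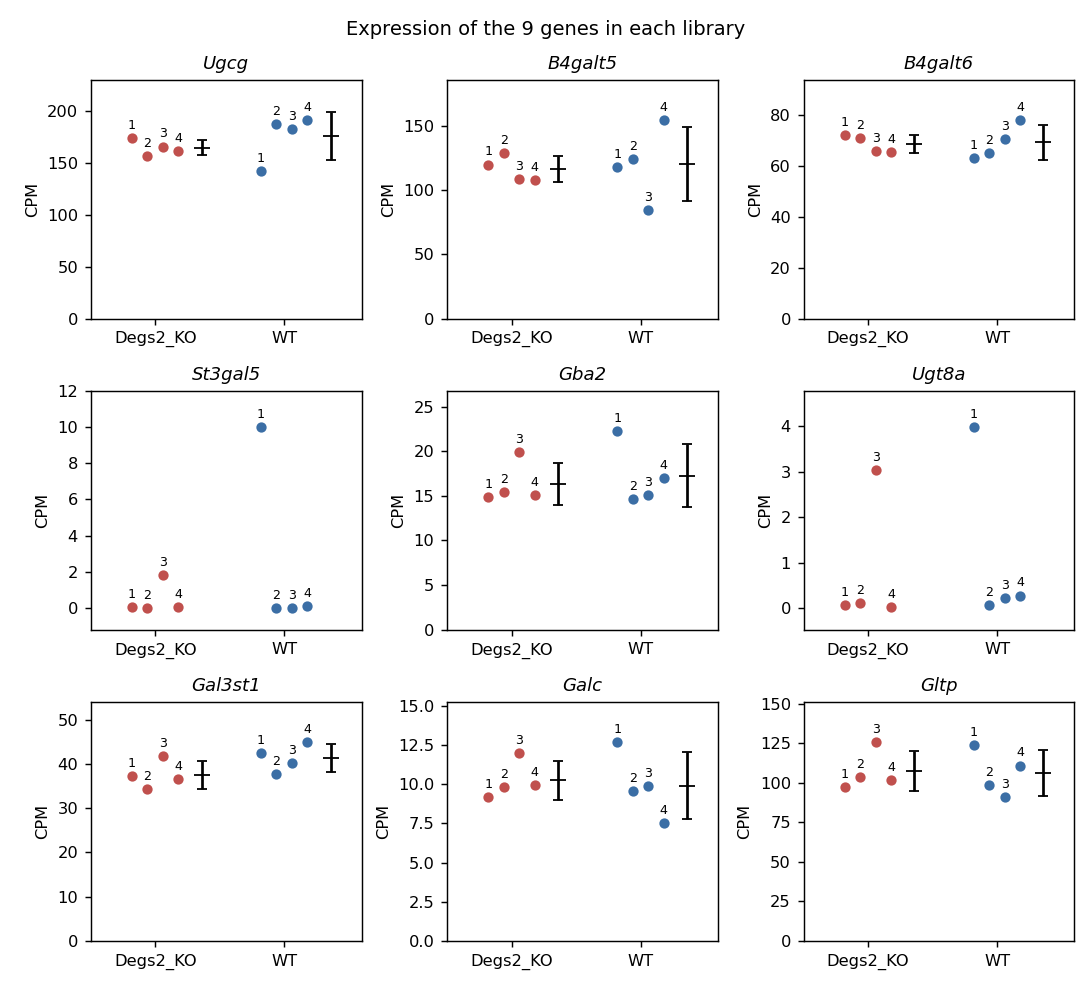
CPM of each gene in each library, Degs2_KO on the left and WT on the right, with the replicate number above each point and, for the 7 genes that passed the filter, the mean and SD of 4 libraries as a black bar. The genotypes overlap in every panel, and replicate 3 of Degs2_KO and replicate 1 of WT are the highest points of St3gal5, Ugt8a, Gba2, Galc and Gltp.

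Ugcg (ENSMUSG00000028381, chromosome 4, 59189257 to 59222833, plus strand), the entry enzyme of the glucosylceramide branch, was at 174, 157, 166 and 162 CPM in Degs2_KO replicates 1 to 4 and at 142, 188, 183 and 192 CPM in WT replicates 1 to 4. WT replicate 1 was the lowest of all 8 libraries and the other WT libraries were the highest, so the groups overlapped through that library alone. The log2 fold change was -0.10 ± 0.10 (SE), with an unadjusted p of 0.38 by edgeR's quasi-likelihood test. Without WT replicate 1 it was -0.18 ± 0.07 with an unadjusted p of 0.0361 and an adjusted p of 0.879 by edgeR, where 4.78% of the tested genes reached an unadjusted p under 0.05. Without both libraries that stood apart Ugcg was at 164 ± 9.09 CPM in Degs2_KO and 188 ± 4.24 CPM in WT (SD, n = 3 each). The groups then did not overlap, as was so for 9.45% of the tested genes. The log2 fold change was -0.19 ± 0.08 with an unadjusted p of 0.0416, a level under 0.05 that 4.01% of the tested genes reached, and an adjusted p of 0.999 by edgeR's quasi-likelihood test. The difference did not pass the adjusted test in either form. The genes most like Ugcg were Napg, Bfar and Cdc42ep5, with Pearson's r of 0.981, 0.96 and 0.953 and Spearman's rho of 0.9, 0.93 and 0.93 over the 8 libraries, ranked as for Ugt8a.

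The lactosylceramide synthases were at similar levels in both genotypes. B4galt5 (ENSMUSG00000017929, chromosome 2, 167298444 to 167349183, minus strand) was at 120, 129, 109 and 108 CPM in Degs2_KO replicates 1 to 4 and at 118, 124, 84.8 and 155 CPM in WT replicates 1 to 4. The WT libraries held both the lowest and the highest value, and the log2 fold change was -0.05 ± 0.16 (SE). B4galt6 (ENSMUSG00000056124, chromosome 18, 20684599 to 20746404, minus strand) was at 72.2, 71.1, 66.1 and 65.4 CPM in Degs2_KO and at 63.1, 65.3, 70.5 and 78.3 CPM in WT, with a log2 fold change of -0.01 ± 0.08. With a coefficient of variation of 7.22% over the 8 libraries it varied least of the 9 genes. B4galt5 made up between 69.5% and 71.5% of the sum of both, per kb of transcript, in Degs2_KO and between 62.4% and 73.2% in WT, so it was the more abundant transcript in every library.

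Gba2 (ENSMUSG00000028467, chromosome 4, 43566928 to 43578873, minus strand) was at 14.9, 15.4, 19.9 and 15.1 CPM in Degs2_KO replicates 1 to 4 and at 22.3, 14.7, 15.1 and 17 CPM in WT replicates 1 to 4. Its highest libraries were Degs2_KO replicate 3 and WT replicate 1. The log2 fold change was -0.08 ± 0.16 (SE), and without these libraries -0.04 ± 0.10. Per kb, Ugcg exceeded Gba2 by 7.38-fold in Degs2_KO replicate 3 and 5.61-fold in WT replicate 1, and by 9.02-fold to 10.4-fold in the other Degs2_KO and 9.96-fold to 11.3-fold in the other WT libraries. The ratio of the glucosylceramide-making to the glucosylceramide-cleaving transcript was thus lowest in the libraries that stood apart, whichever their genotype. Gba2 overlaps Creb3 (37.2 to 45.3 CPM in Degs2_KO, 33.9 to 41.5 CPM in WT) and Rgp1 (101 to 123 CPM in Degs2_KO, 92.1 to 134 CPM in WT) in the annotation. No source used here states whether strand entered the counting, so the share of reads in these overlaps that belongs to Gba2 is uncertain.

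Gal3st1 (ENSMUSG00000049721, chromosome 11, 3983636 to 3999326, plus strand), the sulfatide synthase, was well above Ugt8a, the enzyme before it, which was at 0.276 CPM or less in 6 libraries. It was at 37.2, 34.4, 41.8 and 36.5 CPM in Degs2_KO replicates 1 to 4 and at 42.4, 37.8, 40.1 and 45.0 CPM in WT replicates 1 to 4. Degs2_KO replicate 3 alone lay within the WT range. The log2 fold change was -0.14 ± 0.09 (SE), the largest in size of the 7 tested members, with an unadjusted p of 0.136 by edgeR's quasi-likelihood test. Without the libraries that stood apart it was at 36.1 ± 1.44 CPM in Degs2_KO and 41 ± 3.67 CPM in WT (SD, n = 3 each). The groups then did not overlap, as was so for 9.45% of the tested genes. The log2 fold change was then -0.18 ± 0.09 (SE), with an unadjusted p of 0.0812 and an adjusted p of 0.999 by edgeR's quasi-likelihood test. Even in Degs2_KO replicate 3 and WT replicate 1, where Ugt8a was highest, Gal3st1 exceeded it per kb by 27.6-fold and 21.3-fold. Besides galactosylceramide, Gal3st1 is known to sulfate lactosylceramide and other lipids with a terminal galactose. The genes most like it over the 8 libraries were Mertk, Rassf3 and Naprt, with Pearson's r of 0.965, 0.958 and 0.945 and Spearman's rho of 0.88, 0.95 and 0.93.

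Galc (ENSMUSG00000021003, chromosome 12, 98202294 to 98259459, minus strand), which removes the galactose, lies 10.4 Mb from Degs2 on the same chromosome. It was at 9.21, 9.79, 12 and 9.95 CPM in Degs2_KO replicates 1 to 4 and at 12.7, 9.58, 9.85 and 7.52 CPM in WT replicates 1 to 4. The high libraries were again Degs2_KO replicate 3 and WT replicate 1. The log2 fold change was 0.05 ± 0.17 (SE), the only one besides that of Gltp on the higher side. Gltp (ENSMUSG00000011884, chromosome 5, 114669398 to 114690984, minus strand), the cytosolic carrier of glucosyl- and galactosylceramide, was at 97.3, 104, 126 and 102 CPM in Degs2_KO replicates 1 to 4 and at 124, 98.8, 91.1 and 111 CPM in WT replicates 1 to 4. Its log2 fold change was 0.02 ± 0.12, and its high libraries were the same. Without these libraries the log2 fold change was 0.11 ± 0.13 for Galc and 0.02 ± 0.10 for Gltp, and the genotypes still overlapped for both.

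**Figure D4:**
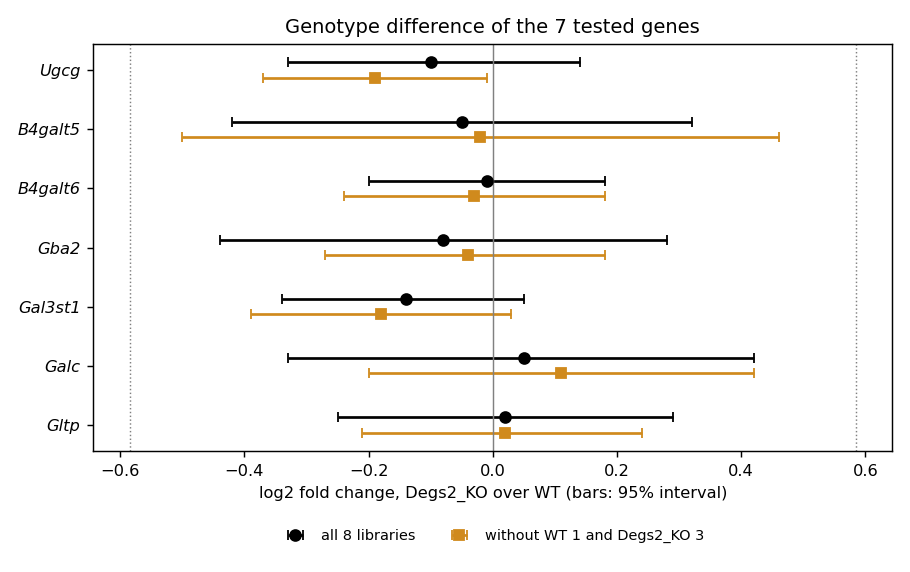
Log2 fold change, Degs2_KO over WT, of the 7 genes that passed the filter, with its 95% interval, from all 8 libraries (black circles) and without WT replicate 1 and Degs2_KO replicate 3 (orange squares); dotted lines mark a 1.5-fold change. All 14 intervals stay inside the dotted lines; that of Ugcg without these libraries ends at -0.01 and the other 13 include 0.

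Degs2_KO replicate 3 and WT replicate 1 were the highest of the 8 libraries for 5 of the 9 members (St3gal5, Ugt8a, Gba2, Galc and Gltp) and the lowest for 0. Of the 7 members that passed the filter it was 3, where the same held for 17.8% of all tested genes, and 16.6% of them had these libraries as the lowest.

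The genes around these 9 in the pathway did not pass the genotype test either. Of 69 tested genes in 5 lists, edgeR's quasi-likelihood test called 0 in either direction after adjustment and 0 at an unadjusted p under 0.05, and the groups overlapped for each gene. There were 32 with a positive and 37 with a negative log2 fold change. Of 20 tested genes of complex glycosphingolipid synthesis (25 listed) 10 were positive and 10 negative, with a median of -0.0067. St8sia5, a sialyltransferase of the higher gangliosides, was at 7.19, 5.21, 1.04 and 12.5 CPM in Degs2_KO replicates 1 to 4 and at 1.45, 21.7, 19.7 and 23.3 CPM in WT replicates 1 to 4. Its log2 fold change of -1.35 ± 0.83 (SE) had an unadjusted p of 0.14 by edgeR, and Degs2_KO replicate 3 and WT replicate 1 were its lowest libraries. Without them it was at 8.31 ± 3.79 CPM in Degs2_KO and 21.6 ± 1.79 CPM in WT (SD, n = 3 each), which did not overlap. It then had a log2 fold change of -1.37 ± 0.30 (SE), with an unadjusted p of 0.0022 and an adjusted p of 0.999 by edgeR's quasi-likelihood test. B4galt1, a galactosyltransferase, had a log2 fold change of -0.27 ± 0.21 and Gbgt1, of the globo series, -0.55 ± 0.46 at under 1 CPM. The most abundant were St6galnac6 (850 ± 62.9 CPM in Degs2_KO, 840 ± 117 CPM in WT) and B3galt5 (715 ± 39.4 CPM in Degs2_KO, 680 ± 93 CPM in WT; SD, n = 4 each).

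Of 12 tested genes of glycosphingolipid breakdown (14 listed) 6 were positive and 6 negative, with a median log2 fold change of -0.0014. Neu1, the lysosomal sialidase, had a log2 fold change of -0.29 ± 0.17 (SE), Neu3, the plasma membrane sialidase for gangliosides, -0.37 ± 0.57 and Gla, which removes alpha-linked galactose, 0.12 ± 0.08. Psap, the precursor of the saposins that assist these enzymes, was at 593 ± 90.5 CPM in Degs2_KO and 597 ± 93 CPM in WT (SD, n = 4 each). Of 9 tested lipid transfer genes (11 listed, of which Cert1 was matched under Col4a3bp, also listed) 1 was positive and 8 negative, with a median of -0.094. Without Degs2_KO replicate 3 and WT replicate 1 there were 4 positive and 5 negative. The examples, over all 8 libraries, were Abcb1b at -0.66 ± 0.37, under 1 CPM, Abca2 at -0.18 ± 0.11 and Plekha8, which carries glucosylceramide through the Golgi, at -0.09 ± 0.07. The multidrug transporter Abcb1a was at 706 ± 237 CPM in Degs2_KO and 773 ± 139 CPM in WT, and Osbp, an oxysterol-binding protein, at 153 ± 10.8 CPM in Degs2_KO and 153 ± 6.82 CPM in WT. None of these differences passed the test.

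Of 11 tested genes of the ceramide substrate (12 listed) 5 were positive and 6 negative, with a median log2 fold change of -0.00032. Cers4, a ceramide synthase, was at -0.14 ± 0.13 (SE), Cers3, under 1 CPM, at -0.60 ± 0.30 and Degs1 at 0.31 ± 0.21. Sptlc2, of serine palmitoyltransferase, was at 244 ± 24.2 CPM in Degs2_KO and 242 ± 26.7 CPM in WT, and Cers6 at 220 ± 43.5 CPM in Degs2_KO and 220 ± 35 CPM in WT. Of the 17 genes of sugar nucleotide and sulfate donors 10 were positive and 7 negative, with a median of 0.022. Slc35a1, the CMP-sialic acid carrier, had a log2 fold change of 0.14 ± 0.10 and Ugp2, which makes UDP-glucose, 0.14 ± 0.13. The sulfate transporter Slc26a2 was at 1370 ± 444 CPM in Degs2_KO and 1600 ± 466 CPM in WT and Gne, which starts sialic acid synthesis, at 733 ± 78.3 CPM in Degs2_KO and 750 ± 132 CPM in WT (SD, n = 4 each). Slc26a2 was lowest in Degs2_KO replicate 3 (875 CPM) and WT replicate 1 (992 CPM), and without them it was at 1530 ± 365 CPM in Degs2_KO and 1810 ± 278 CPM in WT (SD, n = 3 each), which overlapped.

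**Figure D5:**
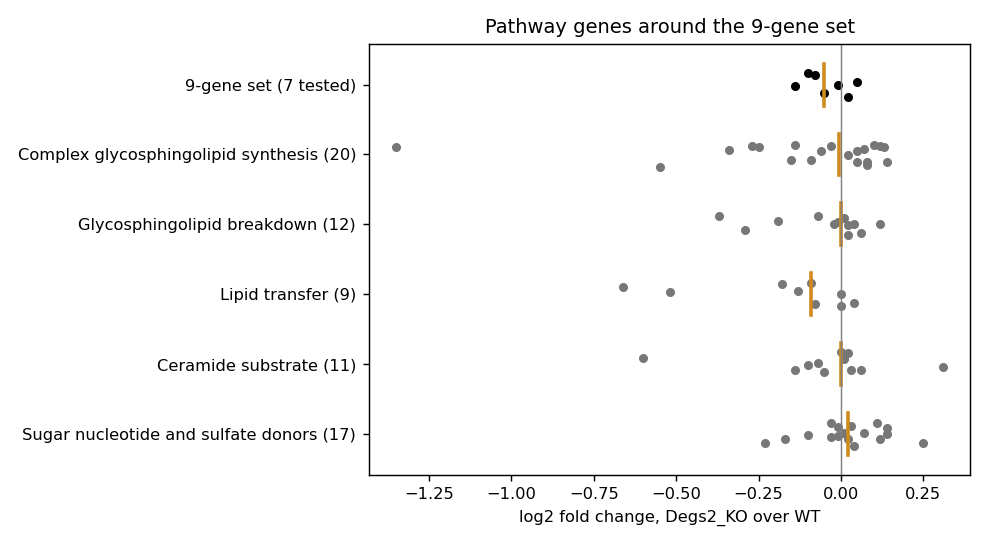
Log2 fold change, Degs2_KO over WT, of each tested gene in the 9-gene set (7 tested, top row) and in 5 lists of pathway genes (number tested in brackets), with an orange line at each median. The points gather around 0 in every row, and the medians lie between -0.094 and 0.022.

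Without Degs2_KO replicate 3 and WT replicate 1, edgeR's quasi-likelihood test again called 0 of the 69 pathway genes after adjustment (adjusted p of at least 0.999). At an unadjusted p under 0.05 there were then 4 of 69 (5.8%, beside 4.01% of all tested genes), each with a lower level in Degs2_KO: St8sia5, B4galt1, Neu1 and Neu3. The groups did not overlap for 7 of 69 (10.1%, beside 9.45% of all tested genes), these 4 and Gla, Cers3 (under 1 CPM) and Cers4. Both shares were near those of all tested genes. Without these libraries the log2 fold change was -0.33 ± 0.13 (SE) for B4galt1, -0.29 ± 0.12 for Neu1 and -0.37 ± 0.12 for Neu3.

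Across the 69 pathway genes, Degs2_KO replicate 3 and WT replicate 1 were the highest libraries for 19 (27.5%) and the lowest for 18 (26.1%), where 17.8% and 16.6% of all tested genes were. Chosen after its values were seen, B4galnt1, the synthase that acts on the product of St3gal5 and on lactosylceramide, was at 162 CPM in Degs2_KO replicate 3 and 147 CPM in WT replicate 1, against 56.8 to 63.2 CPM in the other Degs2_KO and 38.8 to 87.8 CPM in the other WT libraries.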

How the data were processed

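RNA-seq of 8 libraries was analysed from 1 table of estimated counts per gene and library, as deposited by the authors. The submitters' processing notes name cutadapt 1.9, TopHat2 2.0.10, Cufflinks 2.1.1, Cuffdiff and mm10, and no annotation. Within a library the deposited values are multiples of 1 step (0.8711 to 1.3114), the authors' scaling; after division by it, 96.9% to 97.3% of the values up to 100 were whole within 0.02, and these quotients are called fragments. A failed estimate left out 47 genes, none of them named here. The 24 variance columns were not used. Symbols (54074 of 54141 IDs), coordinates and lengths (longest principal transcript) are from GENCODE M21 (GRCm38), and promoters from RefSeq (GRCm38.p6), where 8 of the 9 members matched.

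Estimated counts were rounded and fitted with edgeR 4.0.16 in R 4.3.3 (filterByExpr with minimum count 10 and total 15, leaving 16132 genes; TMM; 2-sided quasi-likelihood F test on group; Benjamini-Hochberg over all tested genes, threshold 0.05), after a test on simulated data. The SE was derived from the fold change and F. Correlations used log2 CPM with a prior count of 2. Alternatives were DESeq2 1.42.0, limma-voom (limma 3.58.1), other scalings and filters, blocks, and libraries left out. No label ties a library to its own mouse, so the p-values reflect variation among these libraries, which could be technical. At most 8 tested genes had identical values in any pair of libraries.

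The members and lists were chosen with earlier results of these data known. Named were the 9 members, Degs2, from each list the 3 genes with the smallest p and the 2 with the highest mean CPM, and for Ugcg, Ugt8a and Gal3st1 the 3 genes with the highest Pearson correlation. Some genes that this rule or a list holds are not reported here.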

Additional observations from a re-analysis of the deposited data

Results flagged for a closer look

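In 6 of the 18 groups of 4 libraries (9 members, 2 genotypes) 1 library lay apart from the rest. Its gap to the nearest of the others, as a share of the group's range, exceeded Dixon's 95% critical value. Chance flags about 1 group in 20, but the 18 groups share the same 8 libraries and are not independent. The share flagged among all tested genes was not computed. All 6 were Degs2_KO replicate 3 or WT replicate 1. These libraries were the highest 2 of the 8 for 17.8% of all tested genes and the lowest 2 for 16.6%. St3gal5 was at 1.8 CPM in Degs2_KO replicate 3 (gap 0.987 of the range) and at 10.0 CPM in WT replicate 1 (0.99). Ugt8a was at 3.03 CPM in Degs2_KO replicate 3 (0.97) and at 3.98 CPM in WT replicate 1 (0.945). Gba2 was at 19.9 CPM in Degs2_KO replicate 3 (0.901). Ugcg was at 142 CPM in WT replicate 1 (0.831), the lowest of its group.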

How the results depend on the processing

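The edgeR call count of 0 held in 18 of 19 alternatives, and DESeq2 called 2 genes, neither a member. At an unadjusted p under 0.05 it was 183 genes, 782 without WT replicate 1, 650 without both WT replicate 1 and Degs2_KO replicate 3, 401 without a filter, 298 without Degs2_KO replicate 1, 292 without Degs2_KO replicate 3, 99 when the replicate number was a block and 79 when libraries with adjoining IDs were (3 pairs). The 7 tested members passed the adjusted threshold in 0 of 133 alternatives (adjusted p 0.879 to 1.0), 120 of them with the same direction and 13 with the other. The direction was kept in all 19 alternatives by Ugcg (-0.19 to -0.02) and Gal3st1 (-0.20 to -0.061). Without 1 library the log2 fold change ranged from -0.18 to -0.053 for Ugcg, -0.20 to -0.10 for Gal3st1, -0.19 to 0.072 for Gba2, -0.18 to 0.10 for B4galt5, -0.048 to 0.051 for B4galt6, -0.063 to 0.20 for Galc and -0.069 to 0.11 for Gltp. The direction of the last 5 turned with the library left out, Gba2 without WT replicate 1 (0.072), B4galt5 without WT replicate 4 (0.10) and B4galt6 without WT replicate 4 (0.051), Degs2_KO replicate 3 (0.0054) or Degs2_KO replicate 4 (0.01). It turned for Galc without WT replicate 4 (-0.063) or Degs2_KO replicate 3 (-0.037), and for Gltp without Degs2_KO replicate 3 (-0.069), WT replicate 3 (-0.049) or WT replicate 2 (-0.015). With the block of adjoining IDs B4galt5 (0.06), B4galt6 (0.034) and Galc (-0.04) turned; the cause was not tested. The replicate block changed no call (Ugcg -0.087, Gal3st1 -0.14, Gba2 -0.073, B4galt5 -0.019, B4galt6 -0.0096, Galc 0.066, Gltp 0.019). The deviations of same-numbered libraries from their group means had r of -0.42, 0.44, -0.56 and -0.1. Degs2_KO replicate 3 and WT replicate 1 stood apart under different numbers, so these r cannot decide whether the numbers mark pairs. The mean of St3gal5 in Degs2_KO minus WT was -2.05 CPM, between -2.89 and 0.446 CPM with 1 library left out (0.446 without WT replicate 1) and 0.00488 CPM without both libraries that stood apart. For Ugt8a these were -0.328, between -1.07 and 0.62 (0.62 without WT replicate 1) and -0.119 CPM. Depth limits St3gal5 and Ugt8a: 3 fragments are 0.0622 to 0.0948 CPM.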
